A study of Danio rerio with 20 samples.

Results

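Beta-actin was measured on every array through the record AF025305, a GenBank entry for zebrafish beta-actin that was printed as 172 separate spots. All spots carrying that name were taken as the member, 1 record among 16407 probes and 172 spots among 17328 on an array. A further 10 control spots named actin oligo served for comparison. The gene tables used here pair AF025305 with no symbol or genome position, so which zebrafish copy of the gene it represents is not stated.

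The arrays carried RNA of whole zebrafish embryos at 48 h after fertilisation, exposed to the organic solvents dimethyl sulfoxide (DMSO) or dimethylformamide (DMF), which are used to dissolve test chemicals. The 5 conditions were unexposed controls, DMSO at 0.025 ml/L, DMSO at 0.1 ml/L, DMF at 0.025 ml/L and DMF at 0.1 ml/L, with 4 RNA pools each. Below, low stands for 0.025 ml/L and high for 0.1 ml/L, and pools carry the replicate numbers of the labels. Each pool held the surviving embryos of 1 plate. Pools of different conditions met in pairs on 20 arrays, 2 arrays a pair, once with each assignment of the dyes Cy3 and Cy5. No genotype or strain is given in the sources used here.

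Beta-actin is a structural protein of every animal cell. Its monomers assemble into filaments that hold cell shape, drive cell movement and form the ring that separates daughter cells. Its transcript is abundant in most tissues, and it is often used as an internal reference in expression studies, which rests on its level being alike between the samples compared.

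The file of array 1 names the scan of array 17. Over 160 AF025305 spots the log2 ratios of both files correlated at 0.9989, and 41 spots were identical in both channels. On array 1 the spots of 4 of 48 blocks, and on array 2 those of 9 blocks, sat 1 column away from the position their names give when set against array 16. Both arrays were left out, which removed the pair of low-DMF pool 2 and high-DMSO pool 1. So 18 arrays in 9 pairs remained, 12 arrays in the second scan batch and 6 in the last, the batches being read from the scan names. With both arrays in, AF025305 was called in none of the 10 comparisons between conditions. Of 3231 probes, 0.464% were then called for high minus low DMSO, 0.0619% for high DMSO minus control and 0.124% for high DMF minus high DMSO. The single-spot fits and the comparison of concentration steps between solvents were not run with both arrays in.

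The 172 spots came from wells a01, a02, b01 and b02 of 43 source plates, with 1 further spot from well b24 of plate 2. The a and b wells lay in blocks 41, 42, 45 and 46 of the print, which held 43, 42, 43 and 43 of the spots, and the further spot, 02b24, lay alone in block 2. The remaining b02 well, 21b02, was named empty. Its position gave a median amplitude 0.891 times that of all empty spots in Cy3 and 1.13 times in Cy5. It had the lowest confidence grade, E, on 17 of 18 arrays. Its highest reading on any array, in either channel, was 32.5 times the empty level. The actin oligo spots lay elsewhere, 5 each in blocks 13 and 14.

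Most AF025305 spots were bright. On all 18 arrays 154 of the 172 spots had a confidence grade above E. Their median amplitude over the empty spots was 83.2-fold in Cy3 (30.8 to 361 over spots) and 52.2-fold in Cy5 (14.8 to 345). Another 15 spots had grade E on some arrays, and 3 spots, 09a01, 06a01 and 03b01, had it on every array. These 3 gave medians of 1.46-, 1.19- and 1.27-fold the empty level in Cy3, next to the median reading of the empty position. After grade E was left out, an array kept 160 to 166 spots, with a median of 163.

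With about 163 usable spots, the ratio of an array was measured with little spotting error. The SD of the log2 Cy5 over Cy3 ratio over spots ran from 0.108 on the array of control pool 3 (Cy5) and high-DMF pool 1 (Cy3) to 0.30 on the array of high-DMSO pool 3 (Cy5) and control pool 4 (Cy3). The SE over spots was 0.0084 to 0.0236. Spots on 1 array share their RNA and hybridisation, so this SE covers printing and reading only. The 4 lower blocks accounted for 4.03% to 29.6% of the variance over spots.

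The array with the SD of 0.30 was also the one where AF025305 stood nearest to the empty spots, 4.43-fold above them in Cy5. That SD was widened by its highest spot, at a log2 ratio of 3.50 where the mean over spots was 0.44. Spot 04b01, graded E on 17 arrays, deviated by 3.06 in log2 ratio where it was usable. The SD without such a spot was not computed, so this spread is not tied here to low signal over background. In the channel of each array that lay nearer to its empty spots, AF025305 stood 4.43- to 39.4-fold above the empty spots in the second scan batch and 32.9- to 519-fold in the last. The actin oligo was nearer to background, 1.21 to 9.97 times empty in the second batch and 7.79 to 14.7 times in the last.

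**Figure D1:**
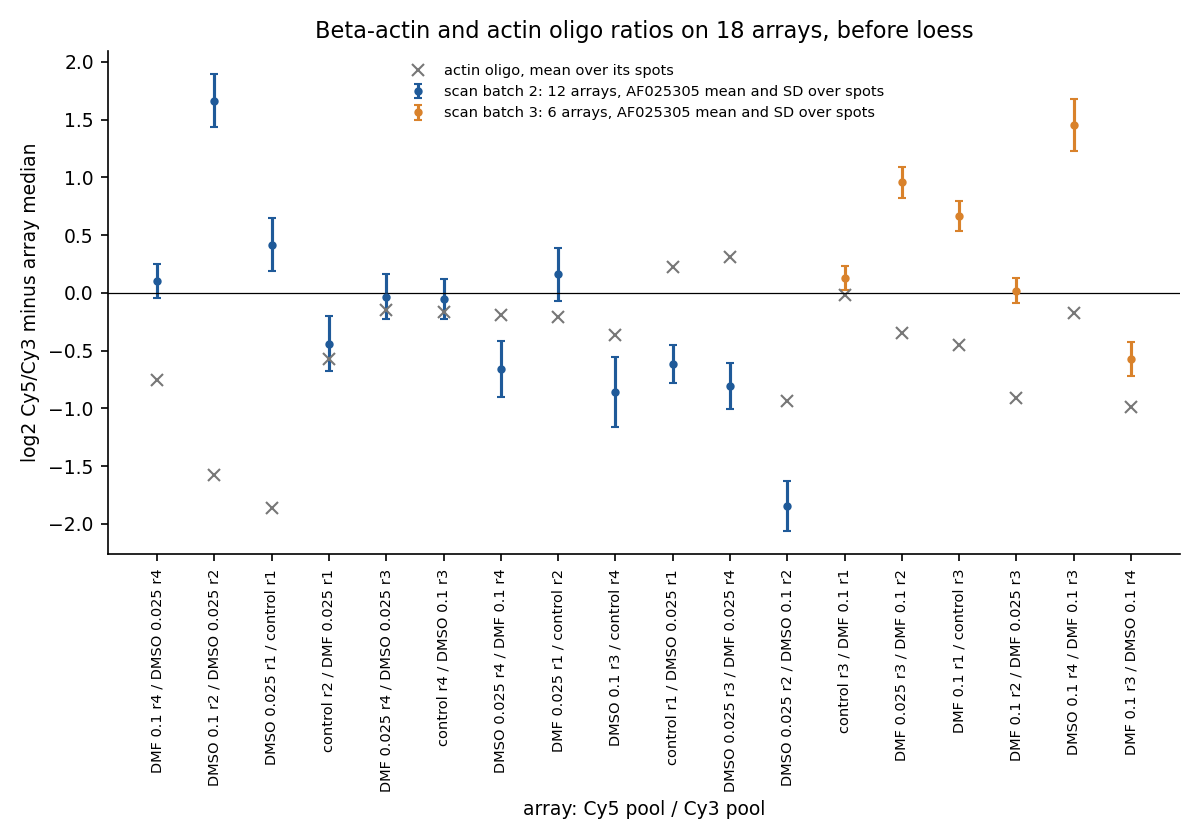
Log2 Cy5 over Cy3 ratio of AF025305 on 18 arrays (y axis, before loess, minus the median of all probes of that array), as the mean and SD over 160 to 166 spots, coloured by scan batch, with the mean of the actin oligo spots as crosses. The spread over spots, at most 0.30, is small beside the range of array means, whose absolute value runs from 0.019 to 1.85.

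Relative to the median of all probes, the log2 Cy5 over Cy3 ratio of AF025305 on single arrays had an absolute value of 0.019 to 1.85. Its median over the 18 arrays was 0.593. Such a ratio of 1 array holds dye effects as well as the difference between its pools. After loess over the whole array, which removes the part of a ratio that goes with brightness, the median was 0.311 and the highest 1.52. Loess fitted within each print block left a median of 0.0433 and at most 0.114. The deposited value table held AF025305 at a median of 0.0712 and at most 0.167. Its ratios for the other probes correlated more closely with block-wise loess (0.881 to 0.994) than with whole-array loess (0.845 to 0.977) on 17 of 18 arrays.

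The record itself enters these curves. AF025305 made up 1.48% to 2.77% of the usable probe spots of a whole array but 14.3% to 36.8% of those in each of its 4 blocks. A curve fitted in such a block follows the AF025305 spots it is meant to correct. Values below come from whole-array loess. They are given also with the AF025305 spots at weight 0 in that loess, a setting chosen after the data were seen, which moved the values of all 10 comparisons away from 0.

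The dye-swapped pairs gave 9 ratios between pools. The ratio was highest for high-DMSO pool 4 over high-DMF pool 3, with log2 values of 1.52 and 0.713 on its arrays and a mean of 1.12, a 2.17-fold difference. High-DMSO pool 2 over low-DMSO pool 2 gave 1.28 and 0.748, with a mean of 1.02, or 2.02-fold. In both pairs each array placed the high DMSO pool higher, in either dye.

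The third pair with that condition did not. Control pool 4 over high-DMSO pool 3 gave -0.13 and 0.37, with a mean of 0.12, so the arrays differed in sign and the control pool was on average the higher one. The fit across all pairs put this ratio at -0.58, and the measured value lay 0.70 above it. That is the widest gap between measured and fitted ratio of the 9 pairs.

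The other 6 pairs had mean ratios between -0.27 and 0.39. High-DMF pool 4 over low-DMSO pool 4 gave 0.20 and 0.47, and low-DMF pool 4 over low-DMSO pool 3 gave -0.05 and 0.83. Both placed the DMF pool above the low DMSO pool on average, the second with arrays of opposite sign.

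Against controls the low doses gave small ratios. Low-DMSO pool 1 over control pool 1 gave 0.19 and 0.25, and control pool 2 over low-DMF pool 1 gave -0.04 and -0.14. Each exposed pool was the higher one on both of its arrays.

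The remaining pairs held high DMF. Control pool 3 over high-DMF pool 1 gave -0.07 and -0.47, and low-DMF pool 3 over high-DMF pool 2 gave 0.46 and 0.03. In the first the DMF pool was higher on both arrays, and in the second the lower concentration was. The gap between the arrays of a pair had a median of 0.44 and ran from 0.06 to 0.88 on the log2 scale, many times the SE over spots.

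**Figure D2:**
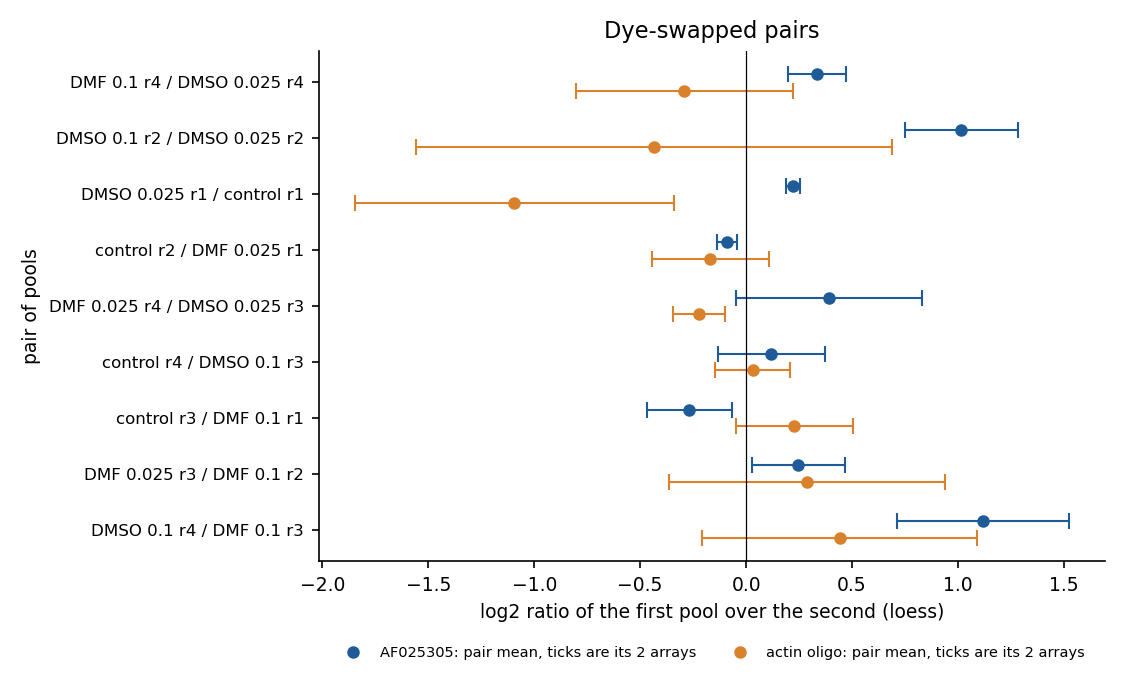
Log2 ratio of the first pool over the second (x axis, after loess) in the 9 dye-swapped pairs (y axis), for AF025305 in blue and the actin oligo in orange. A dot is the mean of a pair, the ticks are its 2 arrays, and r stands before the pool's number. The pairs of high-DMSO pools 2 and 4 stand at 1.02 and 1.12 for AF025305, and the arrays of a pair lie on opposite sides of 0 in 2 pairs for AF025305 and in 7 for the oligo.

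No comparison between conditions passed for beta-actin. limma's fit over the 9 pairs, with Benjamini-Hochberg adjustment over all probes tested and a threshold of 0.05, gave no call for AF025305 in any of 10 comparisons, and 3 had an unadjusted p under 0.05. The F test over the 5 conditions gave F = 2.74 and an adjusted p of 0.537, where 4 of 3652 probes, 0.11%, were called. All p-values rest on the scatter of the 9 pair ratios around the fit, moderated by that of all probes. This scatter holds differences between pools, each of them embryos of 1 plate, together with the error of the arrays. The fit takes 1 ratio per pair and does not separate these parts. Both arrays of a pair hold the same pools, so their gap holds array error and dye effects but no pool difference. As given above, that gap had a median of 0.44 for AF025305. How much of the scatter is array error was not computed.

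All 3 involved high DMSO. Against low DMSO the record was higher by 0.79 ± 0.27 (log2, SE over 9 pairs, with a 95% interval of 0.22 to 1.36), a 1.73-fold difference, with limma's adjusted p at 0.179. Here 0.438% of 3652 probes were called and 17.1% had an unadjusted p under 0.05. AF025305 ranked 203rd by p, and 5.26% of probes had a wider difference.

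Against controls, high DMSO was higher by 0.58 ± 0.27 (0.01 to 1.15), or 1.50-fold, with limma's adjusted p at 0.39. In this comparison 0.274% of probes were called. The only pair that held both conditions, control pool 4 and high-DMSO pool 3, read the other way, with control higher by 0.12. The positive value came from pairs that link these conditions through others. High DMF differed from high DMSO by -0.64 ± 0.27 (-1.21 to -0.07), with limma's adjusted p at 0.334, and 0.657% of probes were called. The 3 differences share the high DMSO pools and are not independent of one another. In these bulk samples, fewer cells rich in a transcript and less of it per cell cannot be told apart.

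The other comparisons lay nearer to 0 and none was called, for AF025305 or for any probe. Low DMSO minus control was -0.21 ± 0.25 (-0.74 to 0.32), low DMF minus control was 0.15 ± 0.27 (-0.42 to 0.72), and high DMF minus control was -0.06 ± 0.25 (-0.59 to 0.47). High minus low DMF was -0.21 ± 0.27, and low DMF minus low DMSO was 0.36 ± 0.27. The mean of both concentrations minus control was 0.18 ± 0.22 for DMSO and 0.05 ± 0.22 for DMF. For each of these 7 limma's adjusted p for the record was 0.71 or higher. In the same order, the share of all probes with an unadjusted p under 0.05 was 4.44%, 6.33%, 1.01%, 2.77%, 8.93%, 5.39% and 3.92%, and that with an adjusted p under 0.05 was 0 in each. For low DMSO and for high DMF, the only pair set directly against control had the opposite sign to the fitted difference. Low-DMSO pool 1 over control pool 1 was at 0.22, and control pool 3 over high-DMF pool 1 was at -0.27.

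The concentration difference was also compared between solvents, a test added after the values were seen. The step from 0.025 to 0.1 ml/L in DMSO exceeded that in DMF by 1.01 ± 0.35 (0.26 to 1.75), with limma's adjusted p at 0.271. It was not called, while 0.329% of probes were, and 13% of probes had an unadjusted p under 0.05.

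A single pair moved these values. Without the pair of control pool 4 and high-DMSO pool 3, the difference of high from low DMSO was 1.14 ± 0.22 with an adjusted p of 0.0273, past the threshold in a limma fit that called 1.42% of 3867 probes. The difference from controls was then 1.19 with an adjusted p of 0.0815, and that of high DMF from high DMSO was -0.99 with an adjusted p of 0.0502, while 0.465% and 1.45% of probes were called. Without the pair of high-DMSO pool 4 and high-DMF pool 3, the same 3 values were 0.55, 0.34 and -0.22, and none was called. Of 3800 probes, 0.158%, 0% and 0% were called there. The last scan batch alone, 3 pairs with no test, gave 1.39 for high DMSO minus control and -1.12 for high DMF minus high DMSO, and the second batch alone gave 0.32 and -0.24.

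The size of the differences moved with the normalization. With its own spots at weight 0 in loess, the difference of high from low DMSO was 1.03 ± 0.30 (adjusted p = 0.136), that from controls 0.75 ± 0.30 (0.389) and that of high DMF from high DMSO -0.84 ± 0.30 (0.31). Block-wise loess gave 0.09, 0.08 and -0.07 with the AF025305 spots in the curve, and 1.07, 0.82 and -0.92 with them at weight 0. The deposited value table gave 0.11, 0.11 and -0.08. No comparison was called under these settings. In the same order of comparisons, whole-array loess at weight 0 called 0.465%, 0.246% and 0.63% of 3652 probes. Block-wise loess called 0.411%, 0% and 0.0821% either way, and the deposited value table called 0% in each.

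**Figure D3:**
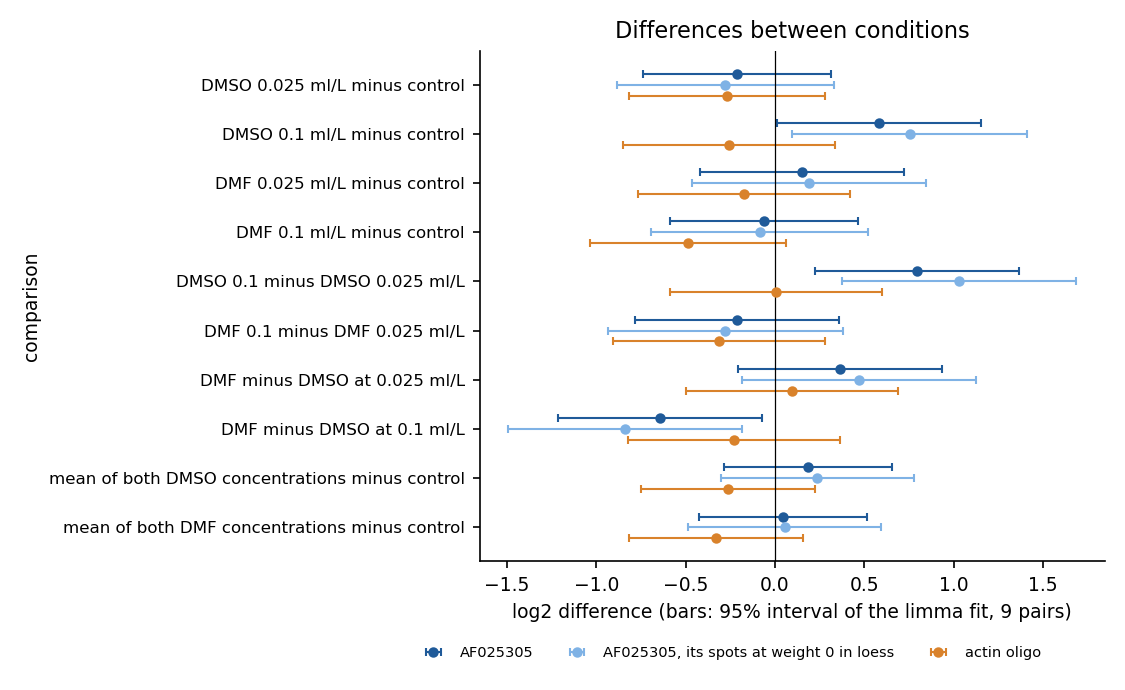
Log2 difference between conditions (x axis) in 10 comparisons (y axis), with 95% intervals of the limma fit over 9 pairs, for AF025305, for AF025305 with its own spots at weight 0 in loess, and for the actin oligo. The AF025305 interval lies off 0 in the 3 comparisons that hold high DMSO on one side, at 0.79, 0.58 and -0.64, and no value passed after adjustment.

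Each spot gave nearly the same answer. Of the 172 spots, 159 had a ratio in at least 8 of 9 pairs and were fitted one by one with all other probes. For high minus low DMSO, 158 of 159 spots were above 0, with a median of 0.82 and a range of -0.39 to 1.19. The upper end was spot 20a01, whose fit lacked 1 pair. By unadjusted limma p 153 passed 0.05, against 17.1% of all probes, and 0 were called after adjustment. The spots share the same RNA on the same arrays, so they repeat 1 measurement and are not 159 tests.

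The agreement was as wide in both other comparisons with high DMSO. High DMSO minus control was above 0 in 158 spots (median 0.60), with 79 at an unadjusted p under 0.05 against 12.4% of all probes and 0 called. High DMF minus high DMSO was below 0 in 158 spots (median -0.65), with 134 at an unadjusted p under 0.05 against 12.7% and 0 called. Where the record's own difference was near 0, the spots were split. High DMF minus control, with a median of -0.07, had 141 spots below and 18 above 0, and the DMF mean minus control, with a median of 0.04, had 128 above and 31 below. The SD over spots for high DMSO minus control was 0.12, against an SE over pairs of 0.27.

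Some of the 172 spots stood apart by fitted difference, ratio or brightness, and those named here were chosen after their values were seen. Spot 20a01 in block 45, graded E on 1 array, lay furthest from 0 in all 3 comparisons with high DMSO. It gave 1.19 for high minus low DMSO, 1.21 for high DMSO minus control and -0.98 for high DMF minus high DMSO. Because of that grade its fit held 8 of the 9 pairs, and which pair it lacked is not given here. For the whole record without the pair of control pool 4 and high-DMSO pool 3, the same differences were 1.14, 1.19 and -0.99. So its distance from the other spots may reflect the missing pair, which was not tested. Spot 38b01 in block 46 was brighter than the other spots by 1.58 (log2) and was the single spot of opposite sign in all 3 comparisons with high DMSO. It gave -0.43 for high-DMSO pool 4 over high-DMF pool 3, where the other spots averaged 1.13, and -0.14 for high- over low-DMSO pool 2, where they averaged 1.03. What is printed there was not tested.

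Spot 02b24, alone in block 2, was the brightest, 2.46 above the others on the log2 scale. Its ratio followed the lower blocks on the last scan batch, where it lay 0.06 to 0.24 above their median on each array, and departed by -0.64 to 1.02 on the second. For high- over low-DMSO pool 2 it gave 0.21, where the 4 lower blocks gave 0.99 to 1.04. For high-DMSO pool 4 over high-DMF pool 3 it gave 1.18 against 1.07 to 1.16. Leaving both spots out moved the difference of high from low DMSO to 0.80 and changed no call.

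**Figure D4:**
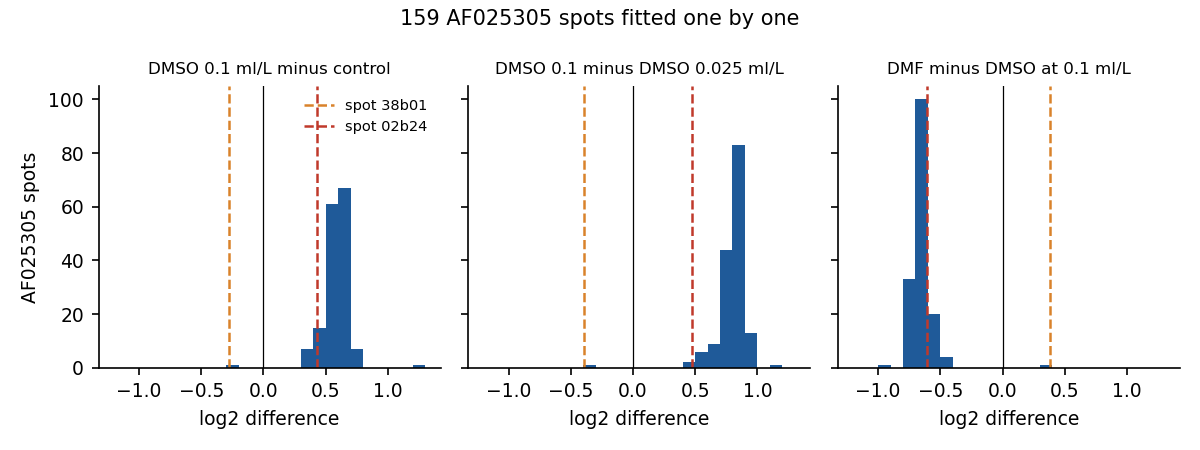
Number of AF025305 spots (y axis) by their own log2 difference (x axis, bins of 0.1) in the 3 comparisons that hold high DMSO, for 159 spots fitted one by one. Dashed lines mark spots 38b01 and 02b24. In each panel 158 spots lie on one side of 0 and spot 38b01 on the other.

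The actin oligo gave other values than the record. Set against control it gave -0.27 ± 0.26 in low DMSO and -0.26 ± 0.28 in high DMSO. In DMF it gave -0.17 ± 0.28 at the low and -0.49 ± 0.26 at the high concentration, and limma called none of the 4, at an unadjusted or an adjusted p under 0.05. For high minus low DMSO the oligo gave 0.01 ± 0.28, where the record gave 0.79. Over the 9 pairs, the signs of oligo and record were opposite in 5 and alike in 4.

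Tested within each pair, the difference for the record exceeded that for the oligo by 0.84 ± 0.38 for high DMSO minus control (limma's adjusted p at 0.39) and by 0.78 ± 0.38 for high minus low DMSO (0.312). Neither difference was called. Between the arrays of a pair, the oligo differed more than the record. The arrays of a pair differed in sign in 7 of 9 pairs for the oligo and in 2 for the record, and their median gap was 1.03 against 0.44. In the pair of high- and low-DMSO pools 2 the oligo read -1.56 on one array and 0.69 on the other, whose sign was turned. As Cy5 over Cy3 these were -1.56 and -0.69, and on most arrays the oligo was below 0 in that form. A dye effect shared by both arrays widens their gap and cancels in the mean of the pair. So the gap and the sign changes do not measure the error of the oligo's pair ratios. The oligo's sequence and the gene it reads are not given in the files.

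The pair ratios of AF025305 left a residual SD of 0.469 over pairs, wider than that of 82.5% of the probes tested, whose median was 0.317. The oligo left 0.504. So the pair ratios of the record scattered around the fit more widely than those of most probes, although each array's ratio had a small SE over spots.

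The level of AF025305 in a pool was its log2 amplitude over the median of the usable probes of that channel, averaged over both dyes. Levels are set across arrays, so their spread is not that of the pair ratios. Controls were closest together, with 2.74, 2.72, 2.96 and 2.52 for pools 1 to 4 (mean 2.74 ± 0.18, SD, n = 4). Low DMSO gave 3.35, 2.37, 2.00 and 2.18 (mean 2.48 ± 0.60, n = 4). Of these, 1 pool lay above all controls and 3 below all of them.

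High DMSO gave 4.19 for pool 2, 2.10 for pool 3 and 4.51 for pool 4 (mean 3.6 ± 1.31, n = 3). Low DMF gave 3.04, 4.98 and 2.44 for pools 1, 3 and 4 (mean 3.49 ± 1.33, n = 3). High DMF gave 3.24, 4.49, 3.55 and 2.56 (mean 3.46 ± 0.80, n = 4). In order of their means the conditions ran high DMSO, low DMF, high DMF, control and low DMSO, and the range of each overlapped with that of the next. This order pools both scan batches and changes within the second. Levels were not tested, since they are set across arrays.

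These levels moved with the scan batch. The 12 pools on the second batch lay between 2.00 and 4.19 with a median of 2.54, and the 6 on the last between 2.96 and 4.98 with a median of 4.02. Within the second batch, the means were 2.66 ± 0.13 for 3 control pools, 2.48 ± 0.60 for 4 pools of low DMSO, 3.14 ± 1.47 for 2 of high DMSO and 2.74 ± 0.42 for 2 of low DMF, and 2.56 for the only pool of high DMF. High DMF thus came below control there, and above it over both batches. The batch's part in the levels was not tested, and a ratio within an array, as used in the comparisons, compares pools of 1 batch.

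**Figure D5:**
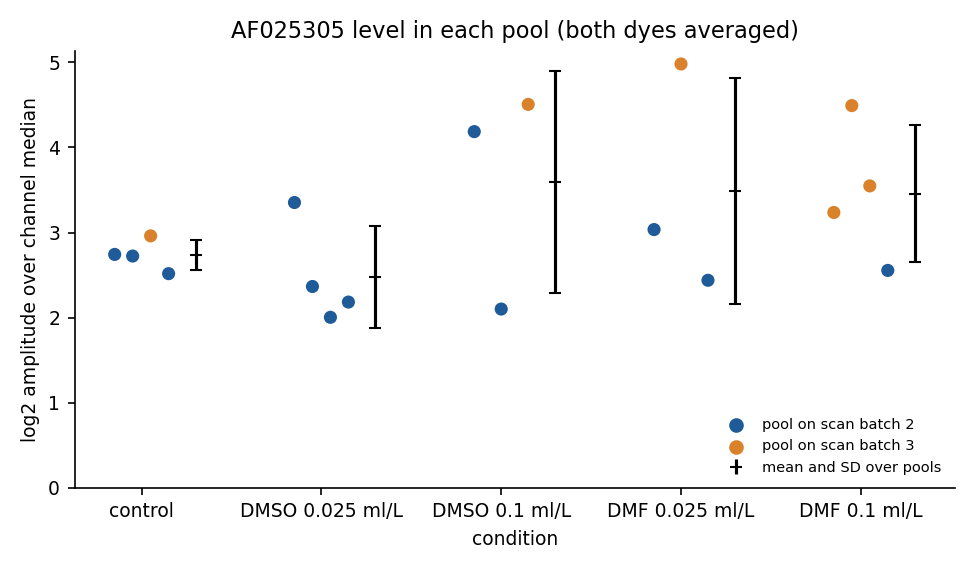
AF025305 level (y axis, log2 amplitude over the median of the usable probes of that channel, averaged over both dyes) in each of 18 pools by condition, coloured by scan batch, with the mean and SD over pools. Controls lie within 2.52 to 2.96, while high DMSO and low DMF span 2.10 to 4.51 and 2.44 to 4.98.

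Other probes had pair ratios of the same pattern. Likeness was the cosine of the 9 pair ratios with those of AF025305, over 2684 probes with a ratio in every pair, and is a description. The median cosine was -0.0341. It was over 0.9 for 32 probes and under -0.9 for 8. The most alike were the records BG727368 (0.989) and BI672727 (0.987), and the most opposed were AI722488 (-0.985) and BG308786 (-0.922). Both most alike records, spots 26c01 and 40b03, came from wells next to the AF025305 wells 26b01 and 40b02 of the same source plates. Whether that position bears on their likeness was not tested, so they are not taken here as separate genes that follow beta-actin. BG727368 gave 0.91 and 0.85 in the 2 pairs where AF025305 was highest, with a difference of high from low DMSO of 0.70 ± 0.24, and AI722488 gave -0.73 and -0.78 there, with -0.56 ± 0.23. Neither was called, at adjusted p of 0.182 and 0.236. The tables used here pair none of the 4 with a gene.

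None of the other listed genes of the actin system could be set beside the record by name. No probe matched a symbol among 10 actin genes, 28 genes for actin-binding or actin-polymerising proteins, or 18 genes used as references in zebrafish expression studies. A list of 12 patterning genes was drawn from genes already found measured in these data. All 12 had a usable ratio in at least 8 pairs, which follows from that choice and is no check of the tissue. None of the 12 was called for high DMSO minus control, where 0.274% of all probes were.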

How the data were processed

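Each array file holds a spot intensity per channel, deposited as the amplitude that BlueFuse for Microarrays (3.3 for 2 arrays, 3.6 for 18, per the file headers) read from the image, with a confidence grade from A to E. The deposited value table holds 1 log2 ratio per spot and array. It follows Cy5 over Cy3, and its normalization is not given in the sources used here.

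The log2 ratios came from limma 3.58.1 and statmod 1.5.0 under R 4.3.3, and lists were read with jsonlite 2.0.0. Spots of grade E (confidence below 0.1) were left out, and no background was subtracted from the amplitudes in the main fit. Loess (span 0.3, 4 iterations) gave 750 control spots weight 0, and AF025305 spots were then averaged. Signs were turned, the arrays of a pair were averaged, and 4 condition coefficients were fitted with lmFit and eBayes (5 residual, 8.64 prior degrees of freedom). Probes needed a ratio in at least 8 of 9 pairs, as 3652 had. Precision is limited by how many pairs of pools there are, 9 in the fit. The actin oligo, and its difference from the record, entered the same fit and adjustment. Other normalizations, background corrections, grades, spot averages, pair sets, batches, channel models and filters were tried. A low concentration is 0.025 ml/L and a high one 0.1 ml/L. The fit was checked on simulated data. Replicate numbers were not used to pair pools in the main fit. Members and lists were chosen with earlier results of these data known. Named probes were the 2 most alike and the 2 most opposed by cosine. All spots named AF025305 or actin oligo were used.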

Additional observations from a re-analysis of the deposited data

How the results depend on the processing

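AF025305 passed the threshold in 1 comparison under 1 setting, high minus low DMSO with control pool 4 and high-DMSO pool 3 left out (1.14). The differences of high DMSO from low DMSO (0.09 to 1.14 over 28 settings), from controls (0.08 to 1.39 over 29) and from high DMF (DMF lower, -1.12 to -0.07 over 29) kept their direction in every setting. With each pair left out in turn they ran from 0.55 to 1.14, 0.34 to 1.19 and -0.99 to -0.22. In the same fits, low DMSO minus control ran from -0.50 to 0.0504 and high DMF minus control from -0.28 to 0.20, with 0.12 when high-DMSO pool 4 and its partner were left out. The DMSO mean minus control ran from -0.0315 to 0.62 and the DMF mean from -0.12 to 0.26, with -0.0985 when low-DMSO pool 1 and its partner were left out. The oligo's differences from control ran from -0.43 to 0.29 (low DMSO), -0.46 to 0.0178 (high DMSO) and -0.47 to 0.10 (low DMF), and record minus oligo from -0.79 to 0.40 (low DMSO) and -0.096 to 0.68 (low DMF).

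High DMF minus control also changed sign under block-wise loess (0.00894), the deposited value table (0.027), separate channels (0.0905) and the second scan batch alone (0.0848). The last scan batch alone gave 0.27 for it, 1.39 for high DMSO, 0.51 for low DMF and 0.39 for the DMF mean, each minus control, and -1.12 for high DMF minus high DMSO. There the oligo gave 0.22 for high DMSO and 0.0616 for low DMF. With the replicate block, low DMSO, low DMF and high DMF minus control came to 0.11, -0.40 and 0.55, high minus low DMF to 0.95 and low DMF minus low DMSO to -0.50, none called. That fit called 0 of 3652 probes in each of these comparisons. It adds coefficients for the replicate numbers to the 4 of the conditions on the same 9 pairs. Few residual degrees of freedom are left, so it could hardly call a probe. Pools of the same number had a median correlation of 0.0231 (-0.61 to 0.467), and those of different numbers -0.023 (-0.616 to 0.752). Spreads this wide do not settle whether the numbers pair the pools. Block-wise loess lowers the record by its own construction, and the cause of the other shifts was not tested. In the second scan batch AF025305 stood as low as 4.43-fold above empty spots, in Cy5 of 1 array. With the median of the empty spots subtracted, AF025305 was not called. For high minus low DMSO, high DMSO minus control and high DMF minus high DMSO, 0.219%, 0% and 0% of 3652 probes then were. With limma's normexp background model it was not called either, and 0.657%, 0.301% and 0.52% of probes were. Whether signal over background moved the values of that batch was not tested.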
